A study of Mus musculus with 4 samples.

Results

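Dividing T cells were picked from single-cell RNA-Seq data on cells of the small intestinal lamina propria (SILP) of WT and A20ZF7 mice by the transcripts that each cell barcode carried. A barcode counted as a T cell with at least 2 unique molecular identifiers (UMIs, each standing for 1 captured RNA molecule) of *Cd3e*, *Cd3d*, *Cd3g*, *Trac* and *Trbc2*, which encode CD3 and T cell receptor chains. It counted as dividing with at least 3 UMIs of *Mki67*, *Top2a*, *Birc5*, *Ube2c* and *Cenpf*, which encode the Ki-67 antigen, topoisomerase IIα, survivin, an E2 enzyme of mitotic exit and a kinetochore protein. Barcodes with more than 1 UMI of *Col1a1*, *Col1a2*, *Col3a1*, *Dcn* and *Des*, genes of fibroblasts and muscle, were left out. Among barcodes with at least 500 UMIs, 200 to 2500 genes and at most 15% mitochondrial UMIs, the rule found 1004 dividing T cells among 16,635 T cells and 58,963 barcodes. Of these, 72 of 4731 T cells were WT and 932 of 11,904 were A20ZF7. They were compared with T cells that had no UMI of the 5 cycle genes (0-cycle T cells), 4487 in WT and 9461 in A20ZF7. T cells with 1 or 2 cycle UMIs, 172 in WT and 1511 in A20ZF7, belonged to neither class.

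A20 is a ubiquitin-editing protein encoded by *Tnfaip3*, and A20ZF7 mice carry knock-in point mutations that abolish binding of linear ubiquitin by its seventh zinc finger. Each genotype was 1 library made with a 5′ kit from the pooled SILP cells of 2 mice at 12 weeks of age, with 60,000 cells collected after negative selection for T cells and innate lymphoid cells. WT mice carried the unmutated gene, and no treatment was given in the labels for either group. With 1 library per genotype there were no replicates and no test, and the 95% intervals in parentheses cover counting error only. The library, the list of gene identifiers counted in it and the genotype cannot be told apart.

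A cell that divides first licenses its replication origins and copies its DNA, and later condenses its chromosomes, builds a spindle and separates into daughter cells. Genes of the first step are switched on through E2F factors, and genes of the second step peak later, under B-Myb, FoxM1 and the DREAM complex. In the gut wall, T cells that meet antigen or inflammatory cytokines can divide in place, while most resident memory T cells rest.

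Dividing T cells were more deeply counted than 0-cycle T cells. Their median depth was 2384.5 UMIs in WT (range 705 to 7404) and 1890 UMIs in A20ZF7 (range 519 to 6914), against 824 and 939 UMIs in 0-cycle T cells. The median number of genes detected was 1253.5 and 1068.5 in dividing T cells and 542 and 618 in 0-cycle T cells. Mitochondrial transcripts made up a median of 2.67% and 2.80% of UMIs in dividing T cells and 3.62% and 3.71% in 0-cycle T cells. In all, dividing T cells held 204,407 UMIs in WT and 2,000,878 in A20ZF7, so that 3 UMIs of a gene, the floor used where a count was 0, corresponded to 14.7 and 1.5 UMIs per 1,000,000 (CPM). Ratios are therefore also given against 0-cycle T cells matched on depth, and shares of cells after each cell was drawn down to a fixed number of UMIs.

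The label rests on genes that the rule itself used. *Mki67* was at 558 CPM in WT and 538 CPM in A20ZF7 dividing T cells, *Top2a* at 714 and 802 CPM, *Birc5* at 386 and 413 CPM, and *Ube2c* at 543 and 462 CPM. Their presence in dividing T cells and absence from 0-cycle T cells were fixed by the rule and check nothing. Of mitotic genes outside the rule, the 50 listed summed to 6150 CPM in WT and 5553 CPM in A20ZF7 dividing T cells, against 505 and 726 CPM in 0-cycle T cells. The summed T cell genes of the rule, present by choice in both classes, reached 2373 CPM in WT and 2359 CPM in A20ZF7 dividing T cells and 2950 and 3110 CPM in 0-cycle T cells. The 2 libraries shared 90 barcodes among all T cells and none among dividing T cells.

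Cells just outside the threshold already carried other cycle transcripts. With exactly 2 cycle UMIs, 24 WT cells held 2883 CPM and 348 A20ZF7 cells held 3647 CPM of the 50 listed mitotic genes that the rule did not use. With exactly 3 cycle UMIs, 11 WT cells held 3588 CPM and 238 A20ZF7 cells held 4492 CPM. With 1 cycle UMI the level was 826 CPM in 148 WT cells and 1622 CPM in 1163 A20ZF7 cells, and with 4 it was 4326 CPM in 13 cells and 5264 CPM in 190 cells. The mitotic level was higher with each further cycle UMI from 1 to 4 in both libraries.

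Transcripts of other cells were measured in the same barcodes. *Igha*, the immunoglobulin A heavy chain and the most abundant of 4 plasma cell genes, was at 930 CPM in WT and 6130 CPM in A20ZF7 dividing T cells, against 9109 and 8812 CPM in 0-cycle T cells. The 4 smooth muscle genes, led by *Acta2*, summed to 719 CPM in WT and 128 CPM in A20ZF7 dividing T cells, against 536 and 346 CPM in 0-cycle T cells. Their ratio to 0-cycle T cells was 4.01 in WT mouse 1 and 0.673 in mouse 2. The 4 B cell genes summed to 4.89 CPM in WT dividing T cells, from 1 UMI of *Cd79b*, and to 37.0 CPM in A20ZF7, where *Cd79a* was highest and *Ms4a1* was the gene at 0, against 53.7 and 40.4 CPM in 0-cycle T cells. The 4 mast cell genes were at 0 in WT dividing T cells and summed to 11.0 CPM in A20ZF7. The 4 hemoglobin genes were at 0 in WT dividing T cells and held 297 UMIs in A20ZF7, of which 2 cells held all but 5. The 6 genes of innate lymphoid and NK cells summed to 289 and 143 CPM, with *Fcer1g* highest, against 438 and 268 CPM in 0-cycle T cells. Of the 72 WT dividing T cells, 20 carried the hashtag of mouse 1, 28 that of mouse 2, 17 both hashtags and 7 neither. The part of these transcripts and of doublets in single gene ratios was not tested.

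The share of T cells in the dividing gate was higher in A20ZF7. It was 1.52% in WT (1.19–1.91) and 7.83% in A20ZF7 (7.35–8.33), 5.14-fold higher (4.06–6.52). In WT it was 1.09% (0.670–1.68) in mouse 1 and 2.23% (1.49–3.21) in mouse 2, so both mice lay below the A20ZF7 library. Without barcodes that held genes of other cells the ratio between libraries was 4.92, and without WT barcodes with both hashtags it was 5.46.

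A gate on UMIs passes more often in deeper cells. When each cell was drawn down to 1000 UMIs before the gates were applied, leaving out 2888 WT and 5845 A20ZF7 T cells that were shallower, the dividing share was 2.12% in WT (1.43–3.02) and 7.01% in A20ZF7 (6.31–7.76), 3.31-fold higher (2.28–4.80). Mouse 1 then stood at 1.86% (0.843–3.52) and mouse 2 at 3.76% (2.07–6.21). At 500 UMIs the shares were 0.222% and 1.25%, a ratio of 5.64 (2.51–12.7). Among cells of 2000 to 4000 UMIs, the share was 7.53% (5.10–10.6) of 385 WT and 27.8% (25.4–30.4) of 1279 A20ZF7 T cells. The A20ZF7 share was the higher one at each of these depths.

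Cycle UMIs were also found in barcodes that were not T cells, and their share differed between libraries too. Among stromal barcodes, those with at least 5 UMIs of the 5 fibroblast and muscle genes, 0.320% of 7192 in WT and 2.45% of 11,858 in A20ZF7 had at least 3 cycle UMIs. At 1000 UMIs these shares were 0.180% (0.0793–0.350) and 1.27% (1.03–1.56), below the dividing share of T cells in the same library. With all UMIs and at 1000 UMIs the fold between libraries was larger in stromal barcodes than in T cells. At 500 UMIs, with stromal shares of 0.0546% and 0.224%, it was smaller. Among barcodes with no UMI of the T cell and stromal genes, 0.322% of 4975 in WT and 1.87% of 4754 in A20ZF7 had at least 3 cycle UMIs. Dividing stromal cells and free RNA cannot be told apart in these stromal shares. Negative selection was applied to both genotypes, and its part in the share of cells was not tested.

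**Figure D1:**
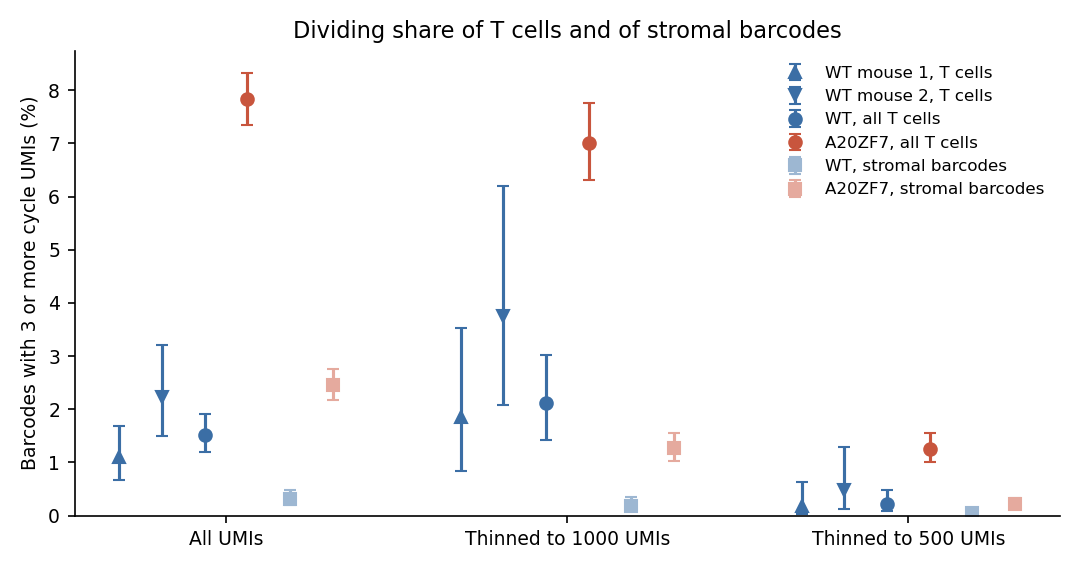
Share of barcodes with at least 3 UMIs of the 5 cycle genes (y axis, %) with all UMIs and after drawing down to 1000 or 500 UMIs, for T cells of each WT mouse, of the WT and A20ZF7 libraries, and for stromal barcodes; bars are exact 95% binomial intervals. The A20ZF7 T cell point lies above every WT point at each depth, and stromal barcodes lie at 0.180% in WT and 1.27% in A20ZF7 at 1000 UMIs.

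Across all genes with at least 20 UMIs in both classes together and 50 CPM in 1 of them, 442 of 3822 (11.6%) were at least 2-fold higher in dividing than in 0-cycle T cells in WT, and 331 (8.66%) were at least 2-fold lower. In A20ZF7, 223 of 3646 (6.12%) were higher and 71 (1.95%) lower. The median ratio over all genes was 1.03 in WT and 0.95 in A20ZF7. Among the 3332 genes compared in both libraries, 169 were higher in both, which is 51.8% of those higher in WT and 92.3% of those higher in A20ZF7. For lower genes the 33 in common were 13.8% of the WT and 66.0% of the A20ZF7 list. In opposite directions, 2 genes were higher in WT and lower in A20ZF7, and 10 were lower in WT and higher in A20ZF7. The cells were chosen by cycle genes, so these ratios describe the gate and are not tested. With 72 cells, WT ratios of low genes were imprecise, and with mouse 1 or mouse 2 alone 904 of 4266 and 703 of 4038 genes were higher and 686 and 497 lower. Without mitochondrial and ribosomal protein genes in the total, 108 of 4597 genes were lower in A20ZF7. A gene near 0 in 0-cycle T cells could enter only through dividing T cells, where it had to be high. The counts and medians below are therefore in part fixed by these limits and cover different genes in the libraries, so each cycle list is also given as a sum over all its genes.

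Genes of origin licensing stood higher in dividing T cells. The 15 listed genes summed to 1458 against 242 CPM in WT and 1044 against 376 CPM in A20ZF7. The 10 that could be compared in WT were at least 2-fold higher, with a median ratio of 5.72, and 6 of 9 in A20ZF7, with a median of 2.96. Over all genes, 11.6% and 6.12% were higher. *Mcm5*, a subunit of the replicative helicase, was at 205 CPM in WT and 116 CPM in A20ZF7 dividing T cells, 9.70-fold (6.63–14.0) and 3.24-fold (2.74–3.82) over 0-cycle T cells. *Mcm3*, from the same complex, was 8.32-fold and 3.20-fold higher. *Gmnn*, which encodes geminin, the inhibitor that keeps origins from firing again, was 7.66-fold and 4.25-fold higher. *Mcm2*, *Mcm4* and *Mcm6* reached 1.81, 1.99 and 1.98-fold in A20ZF7, below the limit of 2.

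DNA synthesis genes followed the same order. The 18 listed genes summed to 2671 against 377 CPM in WT and 1845 against 532 CPM in A20ZF7. Of those that could be compared, 14 of 14 in WT were at least 2-fold higher (median 7.99) and 11 of 12 in A20ZF7 (median 3.32). Over all genes, 11.6% and 6.12% were higher. *Pcna*, the clamp that holds polymerases on DNA, was at 421 CPM in WT and 272 CPM in A20ZF7, 4.92-fold (3.86–6.21) and 2.74-fold (2.47–3.04) over 0-cycle T cells. It was found in 56.9% of WT and 38.3% of A20ZF7 dividing T cells with all UMIs, shares not matched on depth. *Rrm2*, the regulated subunit of ribonucleotide reductase, was 88.9-fold (43.1–201) and 17-fold (13.1–22.2) higher. *Dut*, which removes dUTP, had the highest level of the list, at 455 and 349 CPM. The exception was *Rpa2*, part of the single-strand binding complex, at 1.43-fold in A20ZF7.

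Histone, chromatin and tubulin genes gave the most abundant transcripts that marked these cells. The 11 listed summed to 12045 against 1756 CPM in WT and 9407 against 2101 CPM in A20ZF7. The 9 compared in WT and 10 in A20ZF7 were at least 2-fold higher, with medians of 7.90 and 5.65. Over all genes, 11.6% and 6.12% were higher. *Hmgb2*, a chromatin protein, reached 3371 CPM in WT and 2994 CPM in A20ZF7. With all UMIs, it had a UMI in 100% and 97.6% of dividing T cells. *H2az1*, a variant histone, reached 2617 and 2113 CPM, 5.88-fold and 3.51-fold over 0-cycle T cells. *Tubb5*, a β-tubulin, reached 1277 and 985 CPM. *Stmn1*, which encodes the microtubule destabiliser stathmin, was at 1052 CPM in WT and 567 CPM in A20ZF7, 70.9-fold (54.4–93.3) and 14.4-fold (12.8–16.1) higher.

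Mitotic kinase and cyclin genes had low levels in 0-cycle T cells. The 18 listed summed to 1810 against 55.9 CPM in WT and 1619 against 118 CPM in A20ZF7. Of these, 7 in WT and 11 in A20ZF7 had enough UMIs. They were at least 2-fold higher, with medians of 59.8 and 21.4, where 11.6% and 6.12% of all genes were higher. With sums this low in 0-cycle T cells, these counts and medians were largely fixed by the limits for entry. *Cdk1*, the kinase that starts mitosis, was at 147 CPM in WT and 156 CPM in A20ZF7, against 2.12 and 6.85 CPM in 0-cycle T cells. *Ccnb2*, its B-type cyclin partner, stood at 127 and 95.5 CPM, 110-fold (44.3–327) and 19.7-fold (14.4–27.3) higher. *Ccna2*, the A-type cyclin, had 34 UMIs in WT dividing T cells and 2 in 0-cycle T cells, a ratio of 432 (111–3710). *Cks2*, a small cofactor of these kinases, was at 308 and 288 CPM.

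The 27 spindle, kinetochore and cytokinesis genes summed to 3708 against 271 CPM in WT and 3345 against 417 CPM in A20ZF7. By the same limits 20 entered in WT and 24 in A20ZF7 and were at least 2-fold higher, with medians of 22.8 and 11.6. Over all genes, 11.6% in WT and 6.12% in A20ZF7 were higher. *Smc4*, a condensin subunit, was the most abundant at 494 and 384 CPM, and had the lowest ratios, 3.99 and 2.67. *Tpx2*, which nucleates spindle microtubules, stood at 191 and 175 CPM, 198-fold (78.0–644) and 29.2-fold (22.3–38.8) higher. The 5 mitotic exit genes summed to 631 against 178 CPM in WT and 589 against 191 CPM in A20ZF7, and 3 of 4 compared were higher in each library. *Cdc20*, an activator of the anaphase-promoting complex, was 108-fold (35.2–441) and 26.3-fold (16.7–43.1) higher, while *Pttg1*, which encodes securin, stood at 0.99 (0.60–1.55) and 0.94 (0.77–1.14).

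**Figure D2:**
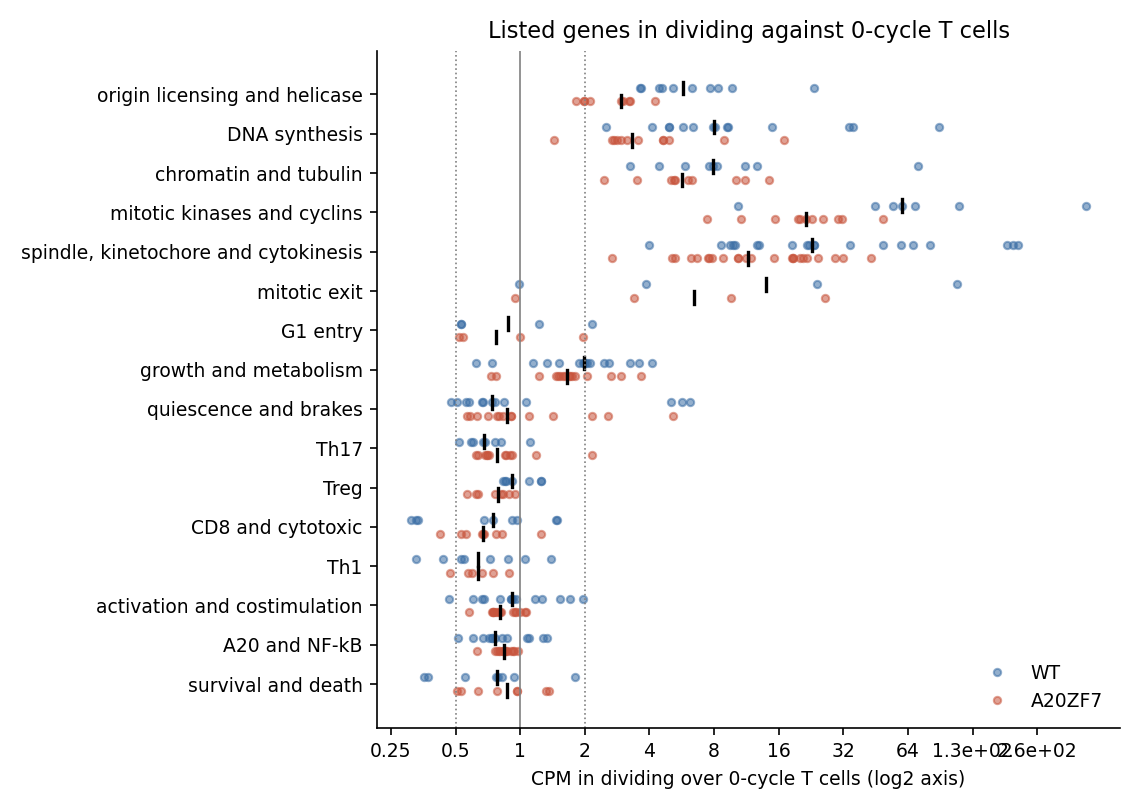
Ratio of CPM in dividing to 0-cycle T cells (x axis, log2 scale) for each listed gene with enough UMIs to be compared, by gene list (rows), in WT and A20ZF7; black bars are medians, the solid line marks 1 and the dotted lines mark 2-fold. The replication, chromatin and tubulin, and mitotic lists have medians to the right of 2-fold in both libraries, and the WT median lies to the right of the A20ZF7 median in the 5 lists from origin licensing to spindle genes, over genes that differ in part between the libraries.

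Genes that carry a cell into the cycle had lower ratios than genes of its later steps. The 12 listed G1 genes summed to 700 against 659 CPM in WT and 666 against 722 CPM in A20ZF7. Of these, 4 could be compared in each library. Among them 1 was at least 2-fold higher in WT and 0 in A20ZF7, where 11.6% and 6.12% of all genes were. *Cdk4*, the kinase that acts with D-type cyclins, stood at 122 and 101 CPM, 2.15-fold and 1.95-fold over 0-cycle T cells. *Ccnd2* and *Ccnd3*, which encode D-type cyclins, were lower in both libraries. *Ccnd2* stood at 171 against 321 CPM in WT and 159 against 295 CPM in A20ZF7, ratios of 0.53 (0.37–0.74) and 0.54 (0.48–0.61), and *Ccnd3* had ratios of 0.53 and 0.52. Against 0-cycle T cells matched on depth, *Ccnd2* was at 0.70 and 0.62. *E2f8*, a repressor of the E2F family, had 11 UMIs in WT dividing T cells and 0 in 0-cycle T cells, too few to be compared.

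Genes that hold T cells at rest had ratios in both directions. Of 16 listed, 3 of 13 compared in WT and 3 of 14 in A20ZF7 were at least 2-fold higher, and 1 and 0 were lower. Of all genes, 11.6% and 6.12% were higher and 8.66% and 1.95% lower. The 16 summed to ratios of 0.693 (0.634–0.755) in WT and 0.764 (0.742–0.787) in A20ZF7. The higher ones were the same in both libraries. *Cdkn2c*, which encodes the CDK4 and CDK6 inhibitor p18, was 5.64-fold (2.75–10.7) and 5.14-fold (4.02–6.56) higher, *Cdkn2d*, which encodes p19, 5.05-fold and 2.15-fold, and *Rbl1*, which encodes p107, 6.16-fold and 2.56-fold. *Cdkn1b*, which encodes p27, stood at 83.2 against 148 CPM in WT and 98.5 against 139 CPM in A20ZF7. *Btg1* and *Btg2*, antiproliferative genes, were at 0.58 and 0.51 in WT and 0.58 and 0.57 in A20ZF7, and *Klf6*, a zinc finger factor, at 0.48 and 0.78. With matching on depth *Btg1* was at 0.77 and 0.74 and *Klf6* at 0.55 and 0.92.

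Promoters of the cell cycle genes were read because the replication and mitotic genes were higher together within their lists. RefSeq promoter windows of build GRCm38.p6, from 250 bases before to 50 bases after each start, were matched for 41 of 50 mitotic, 26 of 33 replication and 15 of 16 quiescence genes. The letters searched on both strands were TTTGAA and TTTAAA, forms of the cell cycle genes homology region (CHR), CCAAT and the E2F 8-mers TTTCCCGC, TTTGGCGC, TTTCGCGC and TTTGCCGC, and matches may overlap. The CHR letters were in 35 of 43 promoter windows of mitotic genes (81.4%), 9 of 33 of replication genes (27.3%), 3 of 18 of quiescence genes (16.7%) and 27.6% of all 32,851 windows. CCAAT was in 79.1%, 60.6%, 55.6% and 37.4%. The E2F letters were in 3 windows of mitotic genes (6.98%), 12 of replication genes (36.4%), 2 of quiescence genes (11.1%) and 2.26% of all. A match is a description, and no binding was measured. The 250 bases before the start are shown, 5′ to 3′ on the strand of the gene and with the matches in capitals, for a mitotic gene with CHR and CCAAT letters, for the kinase and a replication gene that hold all 3 kinds and for a brake that was not higher. They lie at chr9:70421555-70421804 on the minus strand, chr10:69352913-69353162 on the minus strand, chr8:75109259-75109508 on the plus strand and chr6:134920151-134920400 on the plus strand.
Ccnb2: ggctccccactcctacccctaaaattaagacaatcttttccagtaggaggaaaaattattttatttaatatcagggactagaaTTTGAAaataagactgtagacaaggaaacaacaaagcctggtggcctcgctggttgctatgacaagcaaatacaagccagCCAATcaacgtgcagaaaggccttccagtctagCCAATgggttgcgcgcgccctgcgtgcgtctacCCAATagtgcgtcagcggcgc
Cdk1: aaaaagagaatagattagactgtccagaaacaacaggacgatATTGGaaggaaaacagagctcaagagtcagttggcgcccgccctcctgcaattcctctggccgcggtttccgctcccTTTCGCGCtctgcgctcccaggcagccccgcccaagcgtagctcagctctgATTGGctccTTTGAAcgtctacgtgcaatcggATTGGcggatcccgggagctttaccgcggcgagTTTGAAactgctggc
Mcm5: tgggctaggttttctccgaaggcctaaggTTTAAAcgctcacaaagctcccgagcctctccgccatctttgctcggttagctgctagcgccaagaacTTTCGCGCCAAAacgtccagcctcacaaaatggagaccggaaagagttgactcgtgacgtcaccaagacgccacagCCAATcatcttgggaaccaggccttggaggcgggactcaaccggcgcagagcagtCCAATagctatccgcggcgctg
Cdkn1b: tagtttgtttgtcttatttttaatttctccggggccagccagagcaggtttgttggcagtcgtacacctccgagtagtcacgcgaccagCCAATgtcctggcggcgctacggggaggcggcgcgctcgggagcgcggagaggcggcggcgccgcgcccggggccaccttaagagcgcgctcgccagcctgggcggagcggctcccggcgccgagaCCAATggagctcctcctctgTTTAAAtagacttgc
*Ccnb2*, at 110-fold in WT, holds TTTGAA and 3 CCAAT in the bases shown. Another TTTGAA of *Ccnb2* lies after the start, at bases 5 to 10, and is not shown. In *Cdk1*, TTTCGCGC lies between the first and the second of 3 ATTGG, the other strand of CCAAT, and both TTTGAA follow nearer to the start. In *Mcm5* the longest capital run covers TTTCGCGC and, overlapping it on the other strand, TTTGGCGC, with TTTAAA before it and 2 CCAAT after it. *Cdkn1b*, at 0.56 in WT, also holds TTTAAA and CCAAT. A further CCAAT lies after the start in *Mcm5*, at bases 7 to 11, and in *Cdkn1b*, on the other strand at bases 46 to 50.

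Replication and mitotic transcripts were unevenly divided among the cells. With all UMIs, 83.3% of WT and 71.7% of A20ZF7 dividing T cells had at least 3 UMIs of the 33 replication genes, and 97.2% and 97.0% had at least 3 of the 50 mitotic genes. Drawn down to 1000 UMIs, which left out 1 WT and 88 A20ZF7 cells, a WT cell held a mean of 4.09 replication and 7.05 mitotic UMIs and an A20ZF7 cell 2.95 and 5.92. More replication than mitotic UMIs were found in 27.2% (17.3–39.0) of WT and 20.1% (17.5–23.0) of A20ZF7 cells, intervals that overlap. No replication UMI was found in 13.5% and 14.2%. The gate was built on genes that peak in mitosis, and T cells with replication transcripts but no UMI of its 5 cycle genes fell outside it. At 1000 UMIs, 4.61% (3.65–5.73) of WT and 10.2% (9.31–11.2) of A20ZF7 0-cycle T cells had at least 3 replication UMIs, against 1.23% and 5.69% of stromal barcodes.

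**Figure D3:**
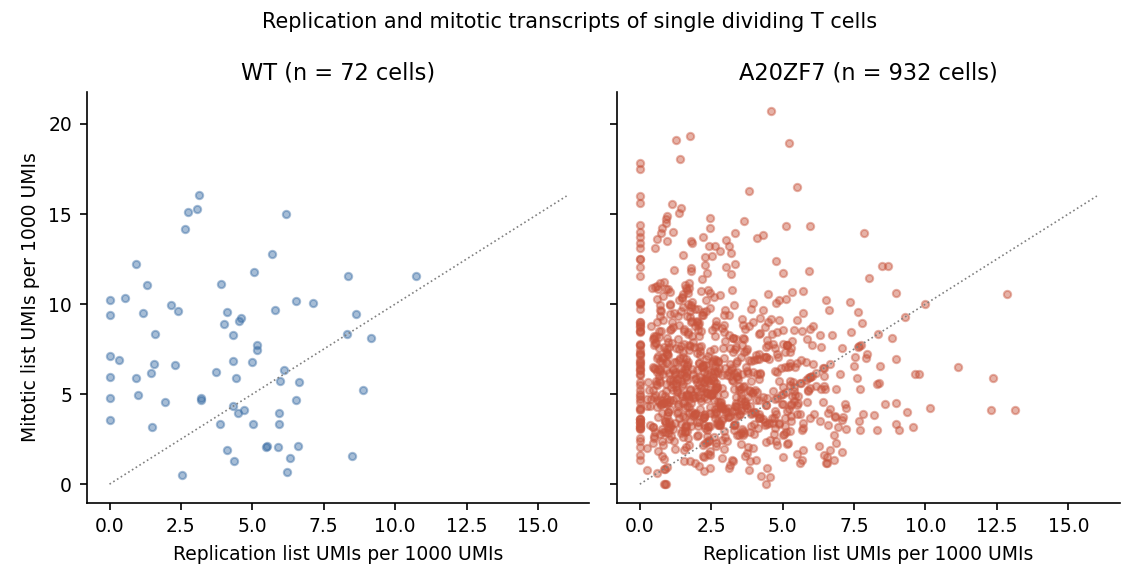
UMIs of the 33 replication genes (x axis) and of the 50 mitotic genes (y axis) per 1000 UMIs in each dividing T cell of WT (72 cells) and A20ZF7 (932 cells); the dotted line marks equal values. In both libraries most cells lie above the line, with cells of no replication UMI along the left edge.

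Between genotypes, dividing T cells of A20ZF7 mice had a lower summed level of replication genes than those of WT mice. The gate was applied to all UMIs, and these cells had a median of 2384.5 UMIs in WT and 1890 UMIs in A20ZF7. The part of this depth difference in the ratios below was not tested. The 33 replication genes summed to 4129 CPM (3855–4417) in WT and 2889 CPM (2815–2964) in A20ZF7, a ratio of 0.700 (0.651–0.753). The ratio was 0.700 against WT mouse 1 and 0.690 against WT mouse 2. In 0-cycle T cells it ran the other way, at 1.47, and in stromal barcodes it was 1.74. The 50 mitotic genes summed to 6150 CPM (5814–6499) and 5553 CPM (5450–5657), a ratio of 0.903 (0.852–0.958), with 0.808 and 0.811 against the single WT mice and 0.998 when up to 5000 genes per barcode were allowed.

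Single replication genes were mostly within 2-fold between the libraries. Of the 24 that could be compared, 3 were at least 2-fold lower in A20ZF7 and 0 at least 2-fold higher, with medians of 0.71 over the 10 licensing and 0.67 over the 14 DNA synthesis genes. *Tyms*, which makes thymidylate, had the lowest ratio, at 166 CPM in WT and 77.0 CPM in A20ZF7 (0.46, 0.32–0.69). *Uhrf1*, which guides maintenance of DNA methylation, stood at 191 and 92.0 CPM (0.48, 0.34–0.70), and *Mcm2* at 113 and 55.5 CPM (0.49). *Mcm6* and *Rrm1*, a subunit of ribonucleotide reductase, had ratios of 0.93. In other lists, *Stmn1* stood at 0.54 (0.47–0.63) and *Rbl1* at 0.47 (0.30–0.76). Over all genes compared between the libraries, 177 of 3709 (4.77%) were at least 2-fold higher in A20ZF7 dividing T cells and 140 (3.77%) at least 2-fold lower, with a median of 0.96. Against WT mouse 1 or mouse 2 alone 543 of 4243 and 386 of 4088 genes were higher and 657 and 459 lower, and without mitochondrial and ribosomal protein genes in the total 283 and 238 of 4732.

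Growth genes summed to 5646 CPM in dividing against 3186 CPM in 0-cycle T cells of WT and 5376 against 3451 CPM in A20ZF7. Their median ratios were below those of the replication, chromatin and tubulin, and mitotic lists, an order in part fixed by the limits for entry. The growth medians were above those of the G1 list, 0.876 in WT and 0.769 in A20ZF7, which cover 4 genes each. Of 23 listed genes of glycolysis, serine and one-carbon synthesis and ribosome making, 7 of 16 compared in WT and 4 of 16 in A20ZF7 were at least 2-fold higher in dividing T cells, with medians of 1.99 and 1.65, where 11.6% and 6.12% of all genes were higher, and none was 2-fold lower. *Ran*, the GTPase of nuclear transport and spindle assembly, stood at 749 and 624 CPM, 4.11-fold (3.44–4.88) and 2.94-fold (2.74–3.15) higher. *Phgdh*, the first enzyme of serine synthesis, was 3.57-fold and 3.66-fold higher, *Tpi1*, a glycolytic isomerase, 2.45-fold and 2.63-fold, and *Pgk1*, a glycolytic kinase, 2.12-fold and 2.04-fold. *Npm1*, a nucleolar chaperone, had the highest level in WT at 1027 CPM, 1.97-fold, and *Gapdh* in A20ZF7 at 909 CPM, 1.74-fold. *Slc3a2*, a subunit of amino acid transporters, and *Odc1*, the polyamine enzyme, stood at 0.62 and 0.74 in WT and 0.77 and 0.73 in A20ZF7.

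Several Th17 genes were higher in A20ZF7 than in WT dividing T cells. *Il17a*, the cytokine of Th17 cells, was at 147 CPM in WT and 1609 CPM in A20ZF7 dividing T cells, a ratio of 11.0 (7.66–16.3), and at 283 and 1898 CPM in 0-cycle T cells, a ratio of 6.71 (6.37–7.08). *Il17f*, its close relative, had 3 UMIs in WT dividing T cells and stood at 226 CPM in A20ZF7, ratios of 15.4 (5.25–75.1) and 14.4 (11.7–18.0) in the 2 classes. *Ccl20*, the ligand of the Th17 receptor CCR6, had ratios of 8.05 (3.67–22.1) and 4.26 (3.56–5.14), and *Il23r*, which receives IL-23, of 2.12 and 2.07. *Il22*, which acts on epithelium, stood at 352 and 626 CPM, with ratios of 1.78 (1.4–2.29) and 1.66. Its reads may be split with a near-identical gene copy, so its level is uncertain. Of 10 Th17 genes compared, 4 were at least 2-fold higher in A20ZF7 dividing T cells, where 4.77% of all genes were. The difference between libraries was present in both classes of T cells and also in stromal barcodes, where *Il17a* was at 55.2 and 721 CPM, *Il17f* at 1.67 and 101 CPM, and *Il22* at 82.5 and 247 CPM. The part of free RNA in the T cell values was not tested.

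**Figure D4:**
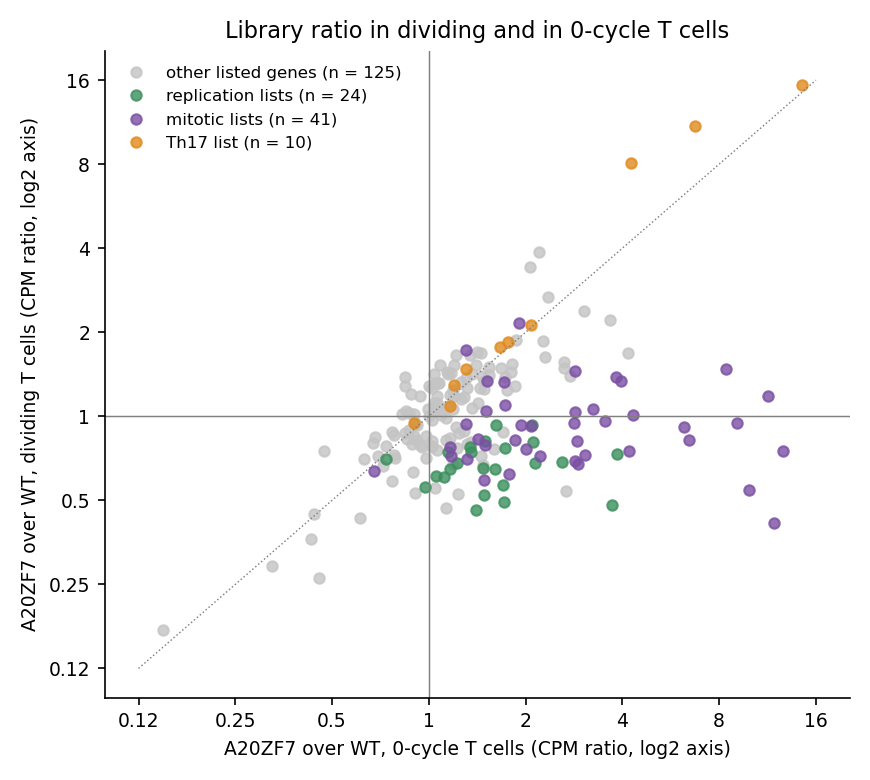
Ratio of CPM in A20ZF7 to WT in 0-cycle T cells (x axis, log2 scale) and in dividing T cells (y axis, log2 scale) for listed genes, with replication, mitotic and Th17 lists in colour; the dotted line marks equal ratios. Most Th17 genes lie near the dotted line or above it, while replication genes lie below it, at ratios under 1 in dividing T cells.

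Within each library, 0 of 8 Th17 genes compared in WT and 1 of 12 in A20ZF7 were at least 2-fold higher in dividing T cells. Over all genes these shares were 11.6% and 6.12%. The gene in A20ZF7 was *Ccl20*. It stood at 236 CPM in dividing and 109 CPM in 0-cycle T cells, 2.17-fold higher (1.94–2.41), and at 2.98 with matching on depth. *Il17a* had ratios of 0.52 (0.35–0.74) in WT and 0.85 (0.82–0.88) in A20ZF7, and 1.0 in A20ZF7 with matching on depth. *Il22* had ratios of 1.11 (0.86–1.40) and 1.18 (1.11–1.26), with 1.30 in WT mouse 1 and 0.609 in mouse 2. *Maf*, a transcription factor of Th17 and other effector T cells, stood at 0.67 and 0.70.

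Shares of cells with subset transcripts were compared after drawing each cell down to 500 UMIs, as the mean over all possible draws. In A20ZF7, 29.8% (26.9–32.9) of dividing and 31.6% (30.7–32.5) of 0-cycle T cells passed a type 17 gate of at least 2 UMIs of its genes, against 9.90% of stromal barcodes, a ratio of 0.944 (0.851–1.05). In WT these shares were 3.0% (0.412–10.0), 5.38% and 0.740%. An *Il22* UMI was found in 20.2% (17.7–22.9) of A20ZF7 dividing and 15.3% (14.6–16) of 0-cycle T cells, against 6.86% of stromal barcodes, a ratio of 1.32 (1.15–1.51), and an *Il17a* UMI in 41.0% and 39.4%, against 16.1%, a ratio of 1.04 (0.960–1.13). Both cytokines were found in 12.0% (9.94–14.2) and 9.61% (9.02–10.2). In this library *Il22* was thus found in a larger share of dividing than of 0-cycle T cells and *Il17a* in a similar one, with intervals that cover the counting of cells in 1 library and no spread between mice. At all UMIs 60.7% of A20ZF7 dividing T cells, 47.8% of 0-cycle T cells and 23.9% of stromal barcodes passed the type 17 gate.

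Read the other way, 10.0% (8.71–11.5) of A20ZF7 T cells with an *Il22* UMI among 500 were in the dividing gate, 8.04% (7.29–8.85) of those with *Il17a*, 7.40% (6.58–8.28) of type 17 T cells, 6.58% (5.07–8.37) of T cells with *Cd4* and no *Cd8*, 5.73% (3.55–8.68) of those with *Foxp3* and 5.2% (3.70–7.08) of those with *Cd8* and no *Cd4*. The share was 8.14% (7.61–8.68) of T cells with neither *Cd4* nor *Cd8* and 7.83% of all A20ZF7 T cells, so those with *Il17a* and type 17 T cells were near the whole. The intervals of neighbours in this order overlap. *Cd8* without *Cd4* was found in 4.04% (2.87–5.52) of dividing and 6.40% (5.91–6.91) of 0-cycle T cells, a ratio of 0.632 (0.458–0.872), with 2.23% in stromal barcodes. *Trdc*, the γδ receptor constant region, was found in 0.362% and 1.35%, with 0.586% in stromal barcodes, so the dividing share was at the level of background. In WT the same shares for *Cd4* were 6.56% (2.08–15) and 4.71%, and for *Cd8* 7.88% (2.84–16.7) and 9.27%, and no difference was detectable with 72 cells.

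Of 9 CD8 and cytotoxic genes compared in each library, 3 in WT and 1 in A20ZF7 were at least 2-fold lower, and none higher. Over all genes, 8.66% and 1.95% were lower than in 0-cycle T cells and 11.6% and 6.12% higher. The WT mice differed here, as the 12 listed genes summed to 2382 CPM in dividing and 8496 CPM in 0-cycle T cells of mouse 1 (0.280, 0.234–0.333) and to 7043 and 9488 CPM in mouse 2 (0.742, 0.679–0.810). The A20ZF7 sum of 6113 CPM in dividing T cells lay between them. *Ccl5*, a chemokine of memory and cytotoxic T cells, stood at 1429 CPM in dividing and 4352 CPM in 0-cycle T cells of WT (0.33, 0.29–0.37) and at 2188 and 5197 CPM in A20ZF7 (0.42, 0.41–0.43). *Gzma*, a granzyme, had the highest level of the list in A20ZF7, at 2778 CPM, and stood at 1810 CPM in WT, 1.25-fold and 1.48-fold over 0-cycle T cells, with 0.737 in WT mouse 1 and 1.90 in mouse 2. Of the Th1 genes, 2 of 8 in WT and 1 of 6 in A20ZF7 were at least 2-fold lower. *Tbx21*, the Th1 master factor, had a ratio of 0.33 (0.12–0.72) in WT, and *Il12rb2*, a chain of the IL-12 receptor, 0.53 (0.36–0.74) and 0.47 (0.38–0.58). With matching on depth *Ccl5* was at 0.51 and 0.47 and *Il12rb2* at 0.85 and 0.61.

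Of the Treg genes, 0 of 7 compared in WT and 0 of 8 in A20ZF7 were 2-fold higher or lower in dividing T cells. Over all genes, 11.6% and 6.12% were higher and 8.66% and 1.95% lower. *Ctla4*, an inhibitory receptor and the most abundant of the list, stood at 509 and 831 CPM in dividing T cells, ratios to 0-cycle T cells of 1.25 (1.02–1.53) and 0.89 (0.84–0.94). *Foxp3*, the Treg master factor, had 4 UMIs in WT and stood at 41.0 against 66.1 CPM in A20ZF7, a ratio of 0.62 (0.49–0.78). Between libraries, *Areg*, an epidermal growth factor receptor ligand, stood at 205 and 455 CPM (2.22, 1.63–3.10) and *Capg*, an actin capping protein, at 68.5 and 184 CPM (2.69, 1.58–4.96). Both differences were also found in 0-cycle T cells, at 3.66 and 2.34.

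Of the naive and central memory genes 2 of 5 compared in WT were at least 2-fold lower, and of the survival genes 2 of 8, where 8.66% of all genes were. In A20ZF7 these counts were 0 of 5 and 0 of 8, where 1.95% of all genes were. The 8 naive and central memory genes summed to a ratio of 0.763 in WT mouse 1 and 0.389 in mouse 2. *Il7r*, the receptor for the survival cytokine IL-7, stood at 323 against 750 CPM in WT (0.43, 0.33–0.55) and 260 against 503 CPM in A20ZF7 (0.52, 0.47–0.57). *Bach2*, a repressor of effector programs, had ratios of 0.41 and 0.62. *Bcl2*, an inhibitor of apoptosis, stood at 103 against 277 CPM in WT (0.37, 0.23–0.57) and 124 against 244 CPM in A20ZF7 (0.51, 0.44–0.58), and *Fasl*, the death ligand, had 5 UMIs in WT dividing T cells (0.35, 0.11–0.84) and was below 50 CPM in both classes of A20ZF7. With matching on depth, *Il7r* was at 0.57 and 0.63 and *Bcl2* at 0.50 and 0.63. Of the activation and costimulation genes, 0 were 2-fold higher in either library, where 11.6% and 6.12% of all genes were. In this list 1 of 14 was 2-fold lower in WT and 0 of 15 in A20ZF7. *Batf*, a factor of activated effector T cells, stood at 1.96 (1.29–2.89) in WT and 0.99 (0.89–1.11) in A20ZF7, and *Icos*, a costimulatory receptor, was the most abundant in both, at 411 and 515 CPM.

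Of the remaining lists, few genes passed 2-fold. Of 9 and 10 cytokine receptor and STAT genes, 1 was lower in WT and 0 in A20ZF7, and of 8 and 7 homing genes none was higher or lower. *Rgs1*, a brake on chemokine receptor signalling and the most abundant homing gene, stood at 1135 and 1156 CPM in dividing T cells, ratios of 0.59 and 0.67. Among γδ genes 1 of 4 was lower in WT and 0 of 2 in A20ZF7, and among Th2 genes 1 of 3 in WT and 0 of 1 in A20ZF7. Of all genes, 8.66% were lower in WT and 1.95% in A20ZF7, and 11.6% and 6.12% were higher.

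Of the A20 and NF-κB genes, 0 of 13 compared in WT and 0 of 14 in A20ZF7 were 2-fold higher or lower in dividing T cells. Over all genes, 11.6% and 6.12% were higher and 8.66% and 1.95% lower. *Tnfaip3* stood at 837 against 1387 CPM in WT (0.60, 0.52–0.70) and 903 against 1436 CPM in A20ZF7 (0.63, 0.60–0.66), and at 0.85 and 0.81 with matching on depth. A UMI of it was found in 83.3% of WT and 78.2% of A20ZF7 dividing T cells with all UMIs, shares not matched on depth. Its level was 1.08-fold (0.92–1.27) in A20ZF7 over WT dividing T cells. *Nfkbia*, which encodes the NF-κB inhibitor IκBα, had the highest level in WT, at 930 CPM, and stood at 810 CPM in A20ZF7.

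Genes outside the lists were named by their ratio in both libraries. The 10 highest included genes of chromosome duplication and division and replication-dependent histones. *Pclaf*, a PCNA-binding protein, was at 724 CPM in WT and 563 CPM in A20ZF7, 163-fold and 16.7-fold over 0-cycle T cells, and was found in 49 of 72 and 562 of 932 cells. *H2ac24*, a replication-dependent histone H2A, was 93.4-fold and 27.8-fold higher, and *Cdca3*, which promotes entry into mitosis, 68.6-fold and 29.6-fold. *Esco2*, which joins sister chromatids, and *Kif15*, a spindle motor, stood at 122 and 196 CPM in WT and 75.5 and 126 CPM in A20ZF7. The others were *H2ac8*, *Kifc1*, *Shcbp1*, *Cep55* and *Spag5*. The histone H2A genes are near-identical copies, so reads may be split among them.

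The 10 lowest had smaller ratios and included genes of other cells. *Reg3b*, an antimicrobial lectin of epithelium, had 1 UMI in WT dividing T cells and stood at 246 CPM in 0-cycle T cells. *Sparc*, a matrix gene, stood at 29.4 and 28 CPM in dividing and 63.9 and 61.1 CPM in 0-cycle T cells. Its ratios were 0.459 (0.167–1.01) in WT and 0.458 (0.342–0.602) in A20ZF7. In stromal barcodes *Sparc* stood at 2238 and 1966 CPM. *Ier3*, an early response gene, had no UMI in WT dividing T cells and stood at 25 against 59.6 CPM in A20ZF7. *Jmy*, a regulator of actin and of p53, was at 0.28 and 0.46, and *Tcp11l2* at 0.16 and 0.44. The rest were *Atp8a2*, *Kdm5b*, *Mideas*, *Prrt1* and *F2r*.

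Between libraries, several of the largest differences in dividing T cells outside the lists rested on few WT molecules or few cells. *Il1r2*, the decoy receptor for IL-1, had 1 UMI in WT dividing T cells and stood at 132 CPM in A20ZF7, in 189 of 932 cells, and its ratio in 0-cycle T cells was 5.64. *Raet1e*, a ligand of the NKG2D receptor, stood at 9.78 and 63.0 CPM, and *Zc3h7a*, a zinc finger gene, at 83.2 and 409 CPM, with ratios of 4.92 in dividing and 4.88 in 0-cycle T cells. For *Fabp4* and *Cfd*, known from fat cells, 1 A20ZF7 cell held 153 of 279 and 162 of 162 UMIs. *Ndufb4*, *B3galt1*, *Ly6d*, *Zmat4* and *Fam117b* had 1 or 2 UMIs in WT dividing T cells. On the lower side, *Csf2*, a cytokine of pathogenic T cells, stood at 68.5 CPM in WT, in 6 cells, and 10.0 CPM in A20ZF7, and *Itga1*, an integrin of resident T cells, at 108 and 20.5 CPM. *Dlgap1*, a synaptic scaffold gene, had 65 UMIs in 40 WT cells and 41 UMIs in 40 A20ZF7 cells, with ratios of 0.06 in dividing and 0.08 in 0-cycle T cells. *Tpm2*, *Mylk* and *Sparcl1*, genes of muscle and vessels, and *Apoa1*, an apolipoprotein of epithelium, were also among them, and *Dstn*, *Fam83d* and *Ulbp1* completed the list. In the fixed lists, *Xcl1*, a chemokine of cytotoxic lymphocytes, stood at 196 and 33.5 CPM (0.17, 0.11–0.26) and *Cd160*, a receptor of intraepithelial lymphocytes, at 137 and 36.0 CPM (0.26, 0.17–0.42).

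Surface proteins were measured by 138 antibodies in WT alone and were not used to choose the cells. Dividing T cells had a median of 1709 antibody UMIs and 0-cycle T cells of 1774, so the depth difference of the RNA was not seen here. Of 124 antibodies with enough UMIs, none was 2-fold higher (0%) or lower (0%), none was 1.5-fold higher, and 1, CD31, was 1.5-fold lower. A single mouse 1 cell held 20,986 of the antibody UMIs of dividing T cells, and without it 3 were 1.5-fold higher, CD4, CD5 and I-A, and 0 lower. CD4 took 30.5 of 10,000 antibody UMIs in dividing, 21.1 in 0-cycle T cells and 10.6 in stromal barcodes, a ratio of 1.45 (1.33–1.57), at 1.28 in mouse 1 and 1.57 in mouse 2. CD5, a negative regulator of receptor signalling that T cells carry, took 89.5, 64.2 and 25.2, a ratio of 1.4 (1.33–1.46), at 1.16 and 1.53. CD43, a sialoglycoprotein that rises on activated T cells, took 20.04, 15.3 and 9.22, a ratio of 1.31 (1.18–1.46), at 1.29 and 1.26. These 3 were higher in both mice, with 20 and 28 dividing cells. The deepest cell held 20,986 of the 53,330 antibody UMIs of mouse 1, and without it the mouse 1 ratios were 1.88 for CD4, 1.72 for CD5 and 1.72 for CD43, and the ratios over all WT cells 1.59, 1.53 and 1.4. Per cell, the median share of CD4 was 33.5 of 10,000 in mouse 1 and 40.2 in mouse 2 dividing T cells, against 17.3 and 18.2 in 0-cycle T cells.

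Several other ratios also moved without the deepest cell. The T cell receptor antibody had a ratio of 1.26 (1.15–1.37), at 1.03 in mouse 1 and 1.5 in mouse 2, and without that cell 1.33, at 1.25 in mouse 1. For I-A, an MHC class II antibody, the ratio was 1.41 in all cells and 0.99 and 0.996 in the single mice, and without that cell 1.51, at 1.17 in mouse 1. CD31, an endothelial adhesion protein, had a ratio of 0.652 (0.615–0.691), at 0.522 and 0.593, and without the deepest cell 0.688, at 0.605 in mouse 1, but the median cell held 46.7 per 10,000 in dividing and 47.9 in 0-cycle T cells. CD38, an ectoenzyme, was at 0.780, or 0.840 without that cell, and CD8a at 1.02 (0.918–1.13). The CD3 antibody took 94.6 in dividing, 89.7 in 0-cycle T cells and 81.2 per 10,000 in stromal barcodes, so it hardly set T cells apart here, and CD69 and CD44, proteins of activated and memory T cells, had ratios of 1.07 and 1.12.

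**Figure D5:**
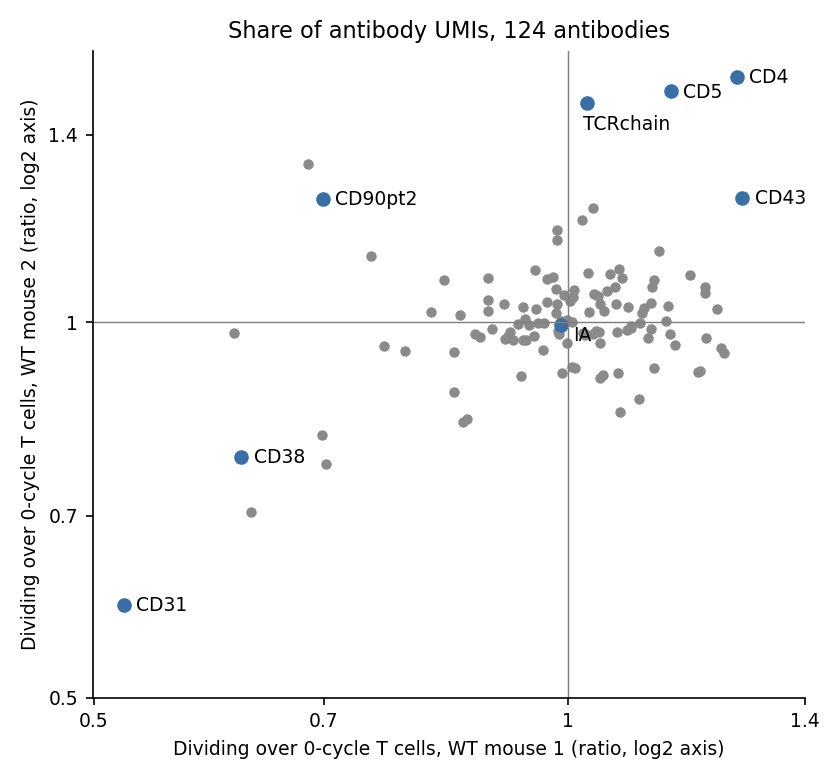
Ratio of the share of antibody UMIs in dividing to that in 0-cycle T cells in WT mouse 1 (x axis, log2 scale) and WT mouse 2 (y axis, log2 scale) for 124 antibodies, with those named in the text in blue. CD4, CD5 and CD43 lie above 1 in both mice and CD31 and CD38 below 1 in both, while CD90pt2, a Thy-1 antibody, lies at 0.699 in mouse 1, or 1.005 without the cell of most antibody UMIs, and at 1.26 in mouse 2.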

How the data were processed

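UMI counts of each gene in each barcode were deposited by the authors as unfiltered Cell Ranger matrices (version 7.1 and genome mm10 per the labels; the file headers of the gene counts name version 8.0.0). The antibody counts deposited for A20ZF7 were the same, value for value, as those for WT, so antibodies were used for WT alone. The libraries list 33,696 and 32,285 gene identifiers, and filters, totals and CPM used the 31,950 in common, which hold 99.7% and 96.6% of UMIs.

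Members, gene lists and comparisons were chosen with earlier results of these data known. Cells were chosen by raw UMIs as stated, and doublets were left in. A class was summed within a library, CPM is UMIs per 1,000,000, and ratios have exact conditional intervals, CPM exact Poisson, shares exact binomial (Clopper-Pearson, on expected counts where cells were drawn down) and ratios of shares log-method intervals, all at 95%. Genes needed 20 UMIs over both classes and 50 CPM in 1 of them. Drawing down used the exact expectation for a gate on few genes and the mean of 200 draws for the dividing share. Cells kept were those at or above 500 or 1000 UMIs. WT barcodes were assigned to mice by HTODemux on 2 hashtags. From each list the text names the most abundant genes and those past 2-fold, and outside the lists the 10 highest and 10 lowest ratios, leaving out Gm, Rik and sex-linked genes, antigen receptor segments and genes of ribosomal proteins, immunoglobulins and mitochondria. Python 3.11.15, numpy 2.4.6, scipy 1.17.1, pandas 2.3.3, R 4.3.3 and Seurat 5.3.0 were used, where the authors named Seurat 4.3. Ratio table and intervals were tested on simulated independent Poisson counts, in which UMIs do not gather in single cells as they do in these data. Drawing down was checked on the dividing T cells themselves, against the expected mean. Alternatives changed the UMI, gene and marker limits, the fold, the CPM total, the WT mice and the depth; the gates applied to list sums and named genes, the subtraction of the stromal level and the antibody ratios without the deepest cell were added after seeing the data.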

Additional observations from a re-analysis of the deposited data

Results flagged for a closer look

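*Nfkbia*, the gene of the NF-κB inhibitor IκBα, stood on opposite sides of 1 in the libraries. Its ratio of dividing to 0-cycle T cells was 1.33 in WT, at 1.11 in mouse 1 and 1.23 in mouse 2, and 0.931 in A20ZF7. The WT value of 1.33 also covers cells with both hashtags or neither. Listed and named genes were searched for intervals on opposite sides of 1, with both WT mice on the WT side. *Nfkbia* alone was found, so its intervals, 1.14–1.54 and 0.883–0.982, were part of the choice. They cover counting error only, and with 1 library per genotype the difference was not tested.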

How the results depend on the processing

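No paired analysis was possible because each genotype is 1 pool of mice and the genotypes share no numbers. Across all results and settings, 128 of the main values kept within counting error or within 1.5-fold for counts and 41 moved. The share ratio of 5.14 was 3.62 with at least 1000 UMIs, 4.0 with at least 4 T cell UMIs, 3.31 at 1000 UMIs, and 7.16 and 3.51 with WT mouse 1 or mouse 2 alone. With mouse 1 or mouse 2 alone, 904 and 703 genes were higher and 686 and 497 lower in WT, and 543 and 386 were higher and 657 and 459 lower in A20ZF7 over WT. At 1.5-fold 898 and 713 genes were higher and lower in WT and 425 and 330 in A20ZF7, and at 3-fold 204, 156, 139 and 38. Without mitochondrial and ribosomal protein genes 108 were lower in A20ZF7, and 283 were higher and 238 lower in A20ZF7 over WT. With all UMIs, WT shares were 27.8% for *Cd4* and 19.4% for type 17, and A20ZF7 shares 20.8% for *Cd4*, 10.3% for *Cd8*, 7.51% for *Foxp3*, 60.7% for type 17 and 1.39% for γδ, and in WT mouse 2 alone γδ was at 0. The replication ratio of 0.700 was 0.753 with up to 5000 genes, 0.756 without barcodes of other cells and 0.595 with the stromal level subtracted. The mitotic ratio of 0.903 was 0.998, 0.933 and 0.829 there, 0.846 with at least 5 cycle UMIs, 0.822 without 2 hashtags, and 0.808 and 0.811 with the single mice. Of single genes and antibodies, 306 values moved and 5 turned: *Mzb1* in WT to 1.15 with up to 5000 genes, with mouse 1 alone *Rpa2* to 0.829 and *Sparc* to 1.08, and in mouse 1 without the dividing cell of most antibody UMIs the antibodies I-A to 1.17 and CD90pt2 to 1.005. Causes were not tested. The number of cells limits WT most, where 3 UMIs summed over 72 dividing T cells are 14.7 CPM.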

Other observations

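T cell receptor β variable genes were counted from the same 5′ reads. WT dividing T cells held 54 *Trbv* UMIs from 13 genes in 31 cells, of which *Trbv13-2* took 13 (24.1%, 13.5–37.6). In A20ZF7 dividing T cells 446 UMIs came from 21 genes in 297 cells, and the most abundant, *Trbv31*, took 69 (15.5%, 12.2–19.2). In 0-cycle T cells 23 genes were seen in each library, and the most abundant took 11.5% (*Trbv1*, WT) and 10.5% (*Trbv13-2*, A20ZF7). No variable gene took most of the *Trbv* UMIs in either library, and most dividing T cells had no *Trbv* UMI. UMIs of 1 cell share a receptor, so the intervals are too narrow.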
